A study of Mus musculus with 12 samples.

Results

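Bone marrow of mice given cyclophosphamide with the Qi-Jing-Sheng-Bai (QJSB) granule was compared with bone marrow of mice given cyclophosphamide alone, gene by gene over every gene with enough counts. The members were the 3 QJSB libraries and the 3 model libraries, 6 of the 12 libraries of the series, and they were chosen by group. The table heads the QJSB columns Stilbene, a word that no sample label uses, and they were taken as QJSB by elimination among the 4 groups. Of 34745 genes in the table, 14486 had enough counts to be tested. The mice were male ICR mice, an outbred stock, and each library came from the femoral marrow of 1 mouse. Mice of both groups received cyclophosphamide at 80 mg/kg per day into the peritoneum from day 5 to day 7. QJSB mice received the granule by mouth at 3 g/kg per day for 1 week, and model mice received saline in its place. The 3 normal libraries, from mice that received saline without cyclophosphamide, are given only as levels, and the 3 leucogen libraries were not compared here.

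Cyclophosphamide is an alkylating drug that kills dividing cells, and marrow is among the tissues it depletes first. Marrow makes neutrophils in steps: promyelocytes load primary granules with myeloperoxidase and elastase, later precursors load secondary and tertiary granules with lactoferrin and gelatinase, and mature cells carry the receptors that release them into blood. Marrow also makes B cells, whose precursors rearrange their receptor genes with the Rag enzymes. QJSB is a granule of plant extracts with deer antler glue, used in the clinic against leucopenia, a shortage of white blood cells in the blood. The comparison addresses which transcripts of the depleted marrow differ when the granule is given.

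The 6 libraries held 13279282 to 18545198 counts. On the first principal component, which carried 46.0% of the variance of the 2000 most variable genes, model 1 stood at -38.8 and QJSB 1 at -26.9, whereas QJSB 2 and QJSB 3 stood at 35.1 and 29.2. Thus QJSB 1 lay nearer to model 1 than to the other QJSB libraries. Genes of neutrophils, erythroid cells, B cells and monocytes were detected in all 6 libraries, as marrow should hold them. Levels below are in CPM, the count of a gene relative to the library total after scaling by TMM factors of edgeR, listed in the order of libraries 1, 2 and 3. They compare libraries for a gene, not genes with each other. In bulk RNA, fewer cells of a type and less RNA per cell cannot be told apart.

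Of the 14486 genes tested, 446 (3.08%) passed the cutoff of the study, a change of over 1.5-fold in either direction together with P under 0.05 before adjustment, here from edgeR's quasi-likelihood test. Of these, 243 (1.68%) were higher and 203 (1.4%) were lower in QJSB. Whatever the fold, 723 genes (4.99%) had P under 0.05 before adjustment, a share close to what the threshold itself admits where no gene differs. DESeq2, run without the filter on low counts, passed 668 of 21762 genes at the cutoff of the study, 394 higher and 274 lower in QJSB. After Benjamini-Hochberg adjustment 0 genes (0.0%) passed in edgeR, where the smallest adjusted p was 0.767, and 8 passed in DESeq2. The cutoff of the study therefore gives a list of candidates and each gene below should be read from its 6 values. The split of the calls depended on the scaling: 54.5% of them were higher in QJSB with TMM factors, and 35.2% of 435 were with total counts, which moved the median of all genes by -0.08 on the log2 scale. The 3 QJSB values lay above all 3 model values for 654 genes (4.51%) and below them for 766 (5.29%).

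Over the tested genes, model 1 and QJSB 1 departed from the means of their groups in similar ways (correlation 0.451). For numbers 2 and 3 the correlations were only 0.135 and 0.102. Model 2 with QJSB 3 (0.182) and model 3 with QJSB 2 (0.168) correlated more, so only number 1 stood out as a pair. Use of the number as a block was decided from these same values, and no label states a pairing. All calls and adjusted p with the block depend on that choice. With the replicate number as a block in edgeR, 433 genes (2.99%) passed the cutoff higher and 397 (2.74%) lower, 830 in all, and 18 (0.124%) passed after adjustment. Of the 446 genes, 405 also passed with the block, and for 412 all 3 differences between same-numbered libraries had one direction. Over all genes, each QJSB library exceeded the model library of its number for 2547 (17.6%) and fell short of it for 2271 (15.7%). Single libraries moved the count of calls strongly. Without QJSB 2 it was 149 genes, and without model 2 it was 245. Without QJSB 1 it was 1715, and without model 3 it was 1051.

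**Figure D1:**
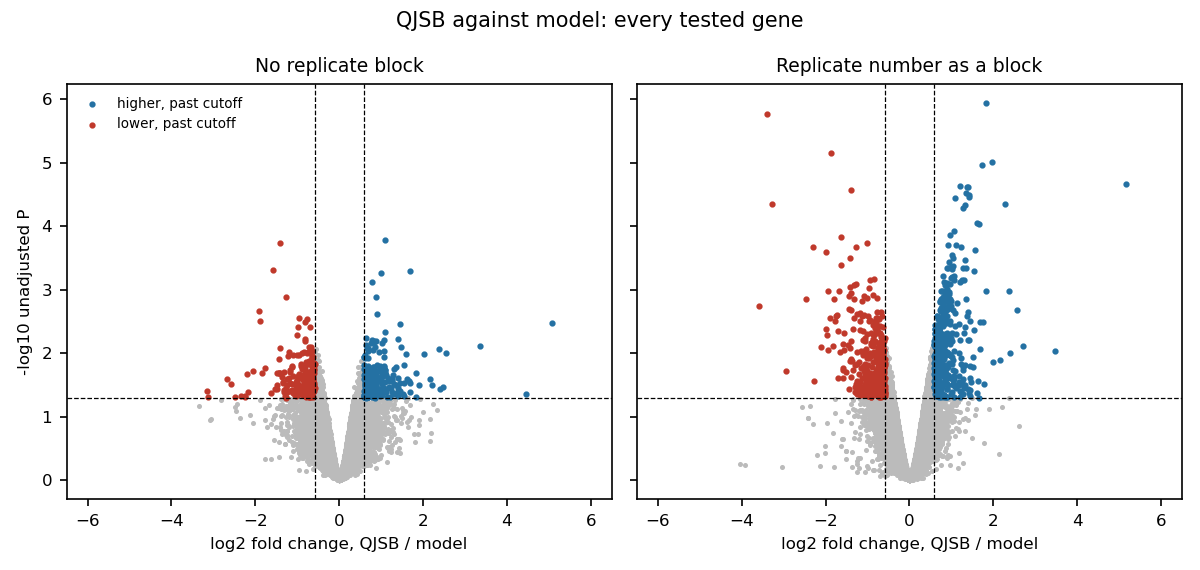
Volcano plots of all 14486 tested genes, with the log2 fold change of QJSB over model on the x axis and -log10 of the unadjusted edgeR P on the y axis, without (left) and with (right) the replicate number as a block. Dashed lines mark the cutoff; 446 genes passed it on the left and 830 on the right.

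Genes with separate groups came first. Elk4, an ETS-family transcription factor that works with serum response factor (ENSMUSG00000026436, chr1:132007607-132032612 in mm10), measured 99.0, 95.6 and 82.6 CPM in model and 195, 234 and 167 CPM in QJSB. Every QJSB mouse stood above every model mouse and below every normal mouse (286 to 337 CPM). The log2 fold change was 1.09 ± 0.17 (SE; edgeR, unadjusted P = 0.000167), and with the block its adjusted p was 0.0378. Ets1, the founding ETS factor, active in lymphocytes and endothelium (chr9:32636221-32757820), measured 27.4, 31.2 and 31.5 CPM in model and 73.1, 60.7 and 48.7 CPM in QJSB, against 93.3 to 109 CPM in normal. Its groups were likewise apart, with a log2 fold change of 1.01 ± 0.19 (edgeR, unadjusted P = 0.000542). Both genes thus stood between model and normal in all 3 QJSB mice.

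The carboxylesterase Ces2g, which hydrolyses ester-bonded drugs and lipids (chr8:104961718-104969537), measured 10.4, 5.18 and 5.84 CPM in model and 29.2, 21.8 and 18.4 CPM in QJSB. It was 3.21-fold higher in QJSB (log2 1.68 ± 0.31, edgeR, unadjusted P = 0.0005; adjusted p = 0.0314 with the block), yet normal mice held far more, 95.8 to 119.7 CPM. Hdc, histidine decarboxylase, the enzyme that makes histamine in basophils and young myeloid cells (chr2:126593667-126619299), measured 43.8, 32.6 and 36.5 CPM in model, 62.3, 64.4 and 81.5 CPM in QJSB and 88.6 to 93.6 CPM in normal. The groups did not overlap, and Hdc rose by a log2 fold change of 0.87 ± 0.19 (edgeR, unadjusted P = 0.00131). The other 6 of the 7 basophil and mast cell genes tested did not pass the cutoff.

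On the opposite side, Zfp451, a zinc-finger protein that helps attach SUMO to other proteins (chr1:33761545-33814595), measured 163, 99.6 and 114 CPM in model and 44.0, 41.0 and 57.5 CPM in QJSB. All QJSB mice lay below the other mice, since normal marrow held 117 to 147 CPM. The log2 fold change was -1.41 ± 0.23 (edgeR, unadjusted P = 0.000186; adjusted p = 0.0378 with the block). Ndufaf4, an assembly factor of respiratory complex I (chr4:24898083-24905001), measured 28.4, 24.0 and 23.1 CPM in model and 5.03, 9.63 and 10.8 CPM in QJSB, a log2 fold change of -1.58 ± 0.29. Ube2l3, a ubiquitin-conjugating enzyme (chr16:17152013-17202649), measured 79.5, 63.4 and 87.2 CPM in model and 14.7, 36.2 and 10.5 CPM in QJSB, a log2 fold change of -1.92 ± 0.43. For both genes 1 normal library was as low as QJSB: the normal values were 22.3, 4.38 and 22.9 CPM for Ndufaf4 and 62.2, 63.9 and 15.4 CPM for Ube2l3. A low value of these genes was therefore also seen without cyclophosphamide or the granule. Without the first library of each group, Ube2l3 no longer passed (log2 -1.72, unadjusted P = 0.0566 in edgeR).

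The 12 largest rises with separate groups also held Fam110c, Magi1, Rnf185, Scnn1a, Hist1h4j, Timp2, Klf2, Pcyt1a, Tob1 and Vdr. Fam110c was at 0.115, 0 and 0.802 CPM in model and 1.71, 12 and 19.5 CPM in QJSB, so that it was nearly absent from model, and it was as low in normal (0, 0 and 1.18 CPM). Its adjusted p with the block was 0.0378, and that of Magi1, a scaffold protein of cell junctions, was 0.0397. Magi1 varied among the QJSB mice, at 28.6, 3.38 and 11.8 CPM against 3.15, 1.28 and 2.86 CPM in model. Scnn1a, a subunit of the epithelial sodium channel, measured 6.37, 9.72 and 9.22 CPM in model and 10.1, 34.7 and 25.7 CPM in QJSB, where libraries 2 and 3 exceeded the normal range of 6.96 to 10.6 CPM. Tob1, a protein that restrains cell division, measured 7.45, 9.36 and 8.07 CPM in model and 10.5, 22.1 and 19.8 CPM in QJSB, nearer to the 26.9 to 35.2 CPM of normal. Vdr, the vitamin D receptor, measured 3.90, 2.70 and 3.55 CPM in model and 5.40, 7.85 and 7.55 CPM in QJSB. Timp2, an inhibitor of matrix metalloproteinases, stood at 7.91, 9.29 and 8.99 CPM in model and 9.74, 29.9 and 16.4 CPM in QJSB. Its lowest QJSB value lay just above the model values, and it did not pass without QJSB 2 (log2 0.58, unadjusted P = 0.0907 in edgeR). Rnf185, a ubiquitin ligase of the endoplasmic reticulum, was high in QJSB 2 alone: its QJSB values were 10.5, 57.0 and 13.2 CPM and its model values 8.03, 10.1 and 9.68 CPM, and without QJSB 2 the log2 fold change was 0.35 (unadjusted P = 0.223 in edgeR). It was also lost without any 1 of the model libraries and passed in 6 of 17 alternatives. With the block it was 1.09 (unadjusted P = 0.0516).

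The 12 largest falls with separate groups also held Il18, Serf2, Snhg5, Psma3, Bhlhb9, Rps13, Plag1, Cav2 and Ak4. Snhg5, a noncoding host of small nucleolar RNAs, measured 42.3, 52.6 and 42.3 CPM in model and 33.2, 12.1 and 15.3 CPM in QJSB. The fall was larger in libraries 2 and 3 than in library 1. Psma3, a subunit of the proteasome core, measured 62.9, 89.8 and 51.3 CPM in model and 38.7, 40.1 and 23.2 CPM in QJSB, and Rps13, a ribosomal protein, 10.9, 9.72 and 10.2 CPM and 3.69, 7.45 and 4.83 CPM. Near-identical copies of both genes exist, so the assignment of their reads is uncertain. Bhlhb9 stood at 27.9, 24.5 and 20.4 CPM in model and 14.4, 8.48 and 14.1 CPM in QJSB. Plag1, a zinc-finger transcription factor, stood at 8.6, 13.7 and 7.22 CPM in model and 5.89, 5.44 and 4.41 CPM in QJSB, and Cav2, a caveolin, at 3.78, 7.02 and 4.41 CPM and 2.84, 2.46 and 2.84 CPM. These falls were of about the same size, with log2 fold changes from -1.19 for Snhg5 to -0.91 for Cav2. Ak4, a mitochondrial adenylate kinase, stood at 20.5, 12.2 and 13.5 CPM in model and 4.17, 10.6 and 10.3 CPM in QJSB, while normal marrow held only 1.6 to 2.85 CPM. With the block Ak4 missed the cutoff (log2 -0.94, unadjusted P = 0.0514 in edgeR). Serf2 was high in model 3 alone: it measured 13.2, 10.2 and 41.6 CPM in model and 9.04, 7.85 and 9.19 CPM in QJSB, and without model 3 the log2 fold change was -0.44 (unadjusted P = 0.121 in edgeR). It was also lost without any 1 of the QJSB libraries and passed in 8 of 17 alternatives.

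Of the 65 genes past the cutoff that the naming rule gave, 15 passed it in all 17 alternatives, or in 16 for Fam110c, which was not tested in one of them. The higher ones were 9, namely Ces2g, Cited2, Elk4, Ets1, Fam110c, Hdc, Hist1h4j, Scnn1a and Tob1. The lower ones were 6, namely Bhlhb9, Il18, Ndufaf4, Psma3, Snhg5 and Zfp451. All 65 kept their direction in every alternative in which they were tested, which was all 17 for 62 of them and 16 for Fam110c, Igll1 and Rag2. The alternatives re-use the libraries on which these genes were called, so a kept direction is not independent evidence. Leaving out QJSB 2 lost 41 of the 65 calls, more than leaving out any other library (10 to 35).

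**Figure D2:**
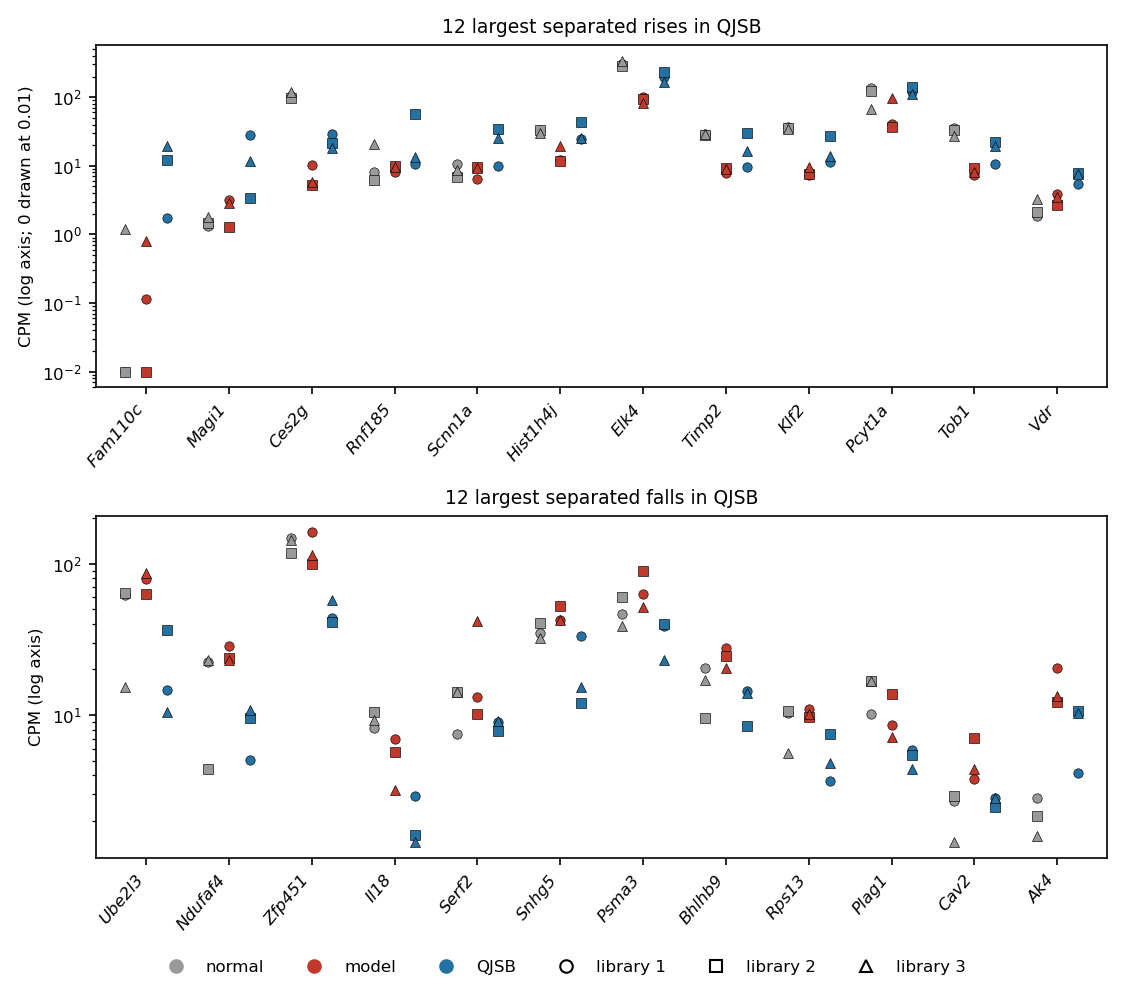
CPM (log axis) of the 12 largest rises (top) and the 12 largest falls (bottom) among named genes past the cutoff whose groups did not overlap, in normal (grey), model (red) and QJSB (blue); the marker shape gives the library number, and a value of 0 is drawn at 0.01 in the top panel. Elk4, Ces2g and Tob1 in QJSB lie between model and normal, whereas Zfp451 in QJSB lies below both.

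The genes of late neutrophils stood higher in QJSB, with a wide spread among the mice of each group. The list of secondary and tertiary granule genes had 16 members tested, with a median log2 fold change of 0.98 against -0.02 over all genes. Of these, 15 had a positive log2 fold change, 1 passed the cutoff higher (Ngp) and 1 lower (Fcnb). In DESeq2 6 passed higher and 1 lower. With the block 11 passed higher and 0 lower, and for 12 each QJSB library exceeded the model library of its number. Their summed level was 7219.6, 18096 and 13062 CPM in model and 7685, 32035 and 31561 CPM in QJSB, beside 15046 to 15617 CPM in normal. Model 1 and QJSB 1 were thus the low libraries of their groups. Leaving out either QJSB 2, QJSB 3 or model 1 left 0 calls higher, leaving out QJSB 1 gave 10, and leaving out the first library of each group gave 11.

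Ngp, neutrophilic granule protein (chr9:110419747-110423012), measured 494, 1643 and 1406 CPM in model and 1117, 5839.6 and 3437 CPM in QJSB. The groups overlapped, since QJSB 1 lay below model 2 and model 3, but each QJSB mouse held more than the model mouse of its number. Its log2 fold change was 1.54 ± 0.65 (edgeR, unadjusted P = 0.047) and 1.42 ± 0.21 with the block (adjusted p = 0.0378). Ltf, lactoferrin, the iron-binding protein of secondary granules (chr9:111019271-111042767), measured 307, 1379 and 937 CPM in model and 646, 4252 and 2752 CPM in QJSB. It missed the cutoff without the block (log2 1.53 ± 0.75, unadjusted P = 0.0791) and passed after adjustment with it (log2 1.41 ± 0.20, adjusted p = 0.0378). Normal marrow held 2396 to 2487 CPM of Ltf and 2124 to 2275 CPM of Ngp, values that QJSB 2 and QJSB 3 exceeded. Anxa1, annexin 1, an abundant regulator of neutrophil migration, measured 1259.6, 5049 and 2939.9 CPM in model and 1410.5, 5847 and 5108 CPM in QJSB and did not pass (log2 0.41 ± 0.63, or 0.38 with the block). Fcnb, ficolin B, a lectin of earlier myeloid cells, went the other way, at 76.0, 243 and 15.8 CPM in model and 18.6, 30.5 and 22.5 CPM in QJSB. That call passed in 5 of 17 alternatives and was lost without any library except model 3, with a log2 fold change of -0.96 without model 2 (unadjusted P = 0.145), and it was lost with the block (log2 -1.6, unadjusted P = 0.227 in edgeR).

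Some promoters of these granule genes hold a motif that the comparison did not use. The C/EBP factors that drive the late steps of neutrophil formation bind sequences such as TTGCNNAA, and this motif, searched on both strands, was found in 7 of the 13 granule genes with a promoter in the RefSeq table (53.8%). Over all 27025 genes with a promoter there, 12.2% held it. The 7 include Fcnb, the member lower in QJSB, with 2 matches, so the motif was not confined to members that were higher. The windows run from 250 bases before to 50 bases after the start of transcription, on GRCm38.p6. Shown here are Ngp, Ltf and, chosen after its values were seen, Lcn2, which are among the abundant granule transcripts. Anxa1, with higher counts than Ltf and Lcn2 in all 6 libraries, also held 1 match and is not shown. The motif is in capitals and reads TTNNGCAA where it lies on the other strand.
Ngp, chr9:110419558-110419857, plus strand: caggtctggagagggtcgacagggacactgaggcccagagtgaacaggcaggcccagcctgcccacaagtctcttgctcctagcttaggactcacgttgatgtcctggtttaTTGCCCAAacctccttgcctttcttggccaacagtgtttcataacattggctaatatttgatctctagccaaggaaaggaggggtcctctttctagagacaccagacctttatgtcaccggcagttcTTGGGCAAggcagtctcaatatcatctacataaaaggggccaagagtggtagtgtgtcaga
Ltf, chr9:111019042-111019341, plus strand: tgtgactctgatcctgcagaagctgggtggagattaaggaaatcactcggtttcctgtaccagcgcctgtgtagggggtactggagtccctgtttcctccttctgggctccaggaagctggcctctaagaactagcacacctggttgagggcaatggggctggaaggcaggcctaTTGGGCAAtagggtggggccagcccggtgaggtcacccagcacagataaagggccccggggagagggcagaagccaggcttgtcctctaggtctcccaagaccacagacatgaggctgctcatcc
Lcn2, chr2:32387690-32387989, minus strand: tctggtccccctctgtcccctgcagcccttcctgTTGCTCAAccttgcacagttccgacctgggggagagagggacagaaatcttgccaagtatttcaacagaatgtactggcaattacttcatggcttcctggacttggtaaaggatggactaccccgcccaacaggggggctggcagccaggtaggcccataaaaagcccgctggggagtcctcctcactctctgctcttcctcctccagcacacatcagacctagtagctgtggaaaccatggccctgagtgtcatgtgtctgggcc
Ngp held 2 matches, and Ltf and Lcn2 held 1 each. A match is a string of letters, and binding was not measured.

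Receptor and release genes of mature neutrophils were also mostly higher in QJSB. Of 18 tested, 14 had a positive log2 fold change, with a median of 0.89. Without the block 1 passed (Ltb4r1, the receptor of leukotriene B4), and with it 9 passed higher and 0 lower. Without QJSB 2, QJSB 3, model 1 or model 2 0 passed, and without QJSB 1 7 did. Cxcr2, the chemokine receptor that draws neutrophils out of marrow, measured 24.5, 103 and 143 CPM in model and 58.7, 287 and 270.4 CPM in QJSB, beside 239 to 248 CPM in normal. Mmp25, a membrane metalloproteinase of neutrophils, measured 8.49, 36.3 and 38.4 CPM in model and 18.8, 129 and 87.7 CPM in QJSB. For both genes QJSB 1 lay below model 2 and model 3 and above model 1. Their adjusted p with the block was 0.0378 for Cxcr2 and 0.0378 for Mmp25, although without it neither passed (log2 1.18 ± 0.78 and 1.49 ± 0.79). Mxd1, a partner of Max that accompanies the end of division, stood at 121, 339 and 406 CPM in model and 184, 894 and 854 CPM in QJSB (log2 1.01 ± 0.20, unadjusted P = 0.000282 in edgeR with the block). Itgam, the integrin CD11b, stood at 192, 357 and 382 CPM and 275, 736 and 674 CPM (log2 0.78 ± 0.18, unadjusted P = 0.00106 with the block), and a second gene model of the same symbol may have taken part of its reads. Csf3r, the receptor of G-CSF, was at 163, 217 and 357 CPM and 220.5, 329.6 and 325 CPM and did not pass in either fit.

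Further genes passed after adjustment with the block. The stefins Stfa2 and Stfa2l1 and the stefin-like BC100530, inhibitors of cysteine proteases abundant in neutrophils, had adjusted p of 0.0314, 0.0378 and 0.0397 in edgeR. Stfa2l1 measured 8.03, 72.8 and 79.3 CPM in model and 28.1, 234 and 142 CPM in QJSB. These genes are near-identical copies, so their reads may be shared. Asprv1, a retroviral-like aspartic protease, measured 2.29, 35.4 and 19.4 CPM in model and 7.01, 128 and 77.1 CPM in QJSB (log2 1.83 ± 0.19 with the block, adjusted p = 0.0125). Sept5, a septin that the table lists under a symbol turned into a date (ENSMUSG00000072214), measured 18.5, 39.3 and 26.3 CPM in model and 33.0, 111 and 74.6 CPM in QJSB (adjusted p = 0.0417 with the block). In each of these genes the lowest QJSB value was that of QJSB 1 and the lowest model value that of model 1.

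Primary granule genes, made earlier in the promyelocyte, held no calls in these fits. Of 7 tested, 5 had a positive log2 fold change, with a median of 0.31, and 0 passed the cutoff in edgeR with or without the block and 0 in DESeq2, and 0 had an unadjusted P under 0.05. Without model 3, 3 passed higher and the median was 0.57. Of the 7, 0 had every QJSB library above the model library of its number. Mpo, myeloperoxidase, measured 3213, 2316 and 4674 CPM in model and 4548, 4314 and 4059 CPM in QJSB, and Elane, neutrophil elastase, 1161, 839 and 1552 CPM and 1481, 1483 and 1502 CPM. Ctsg, cathepsin G, was at 1390.0, 2109.5 and 1817 CPM and 1658, 1569 and 1356 CPM, and Ms4a3, a membrane protein of granulocyte progenitors, at 584, 957 and 654 CPM and 571, 649.7 and 564 CPM. Both cyclophosphamide groups lay far above normal for these genes, where Mpo was at 346 to 419 CPM and Elane at 169.9 to 224 CPM. The difference between the behaviour of the granule lists was not tested.

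**Figure D3:**
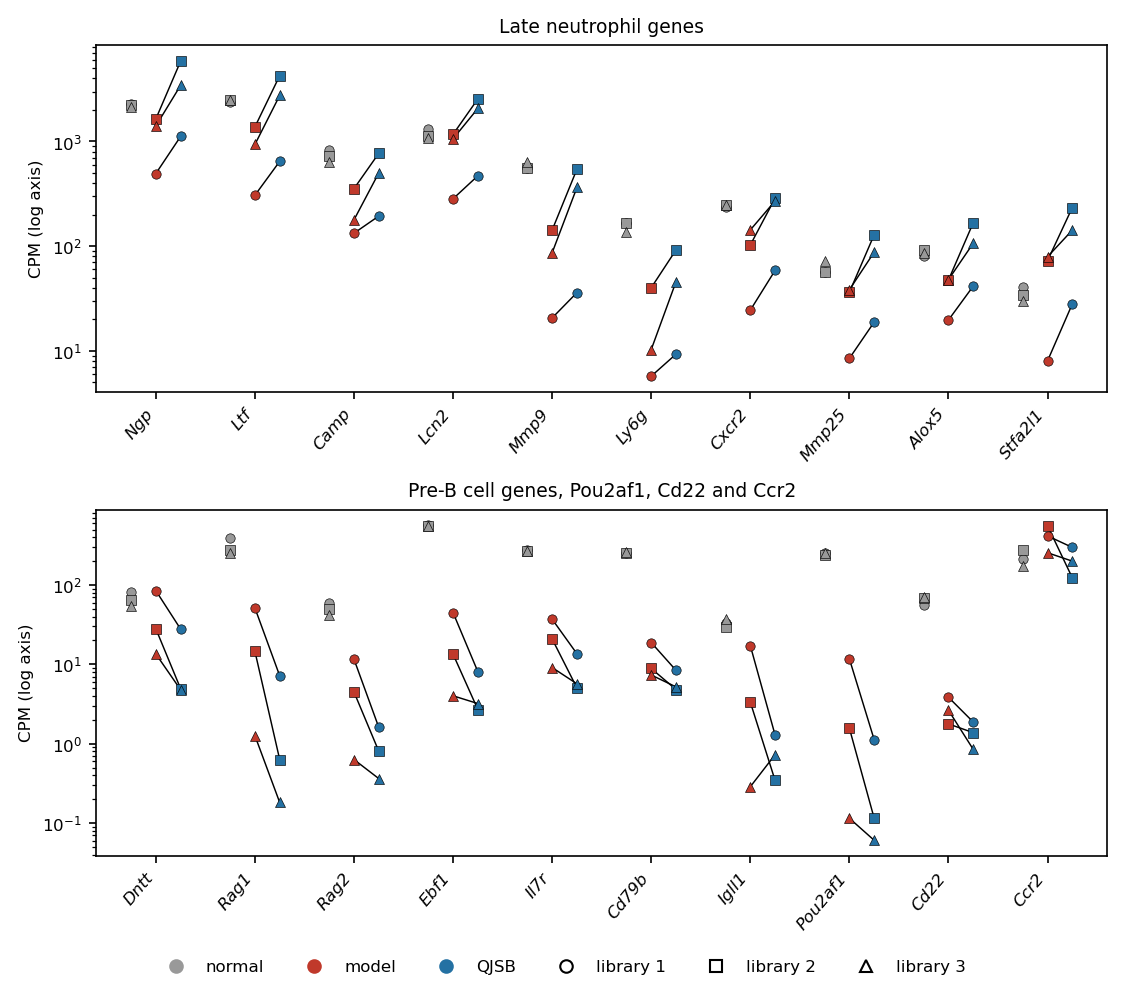
CPM (log axis) of late neutrophil genes (top) and of pre-B cell genes with Pou2af1, Cd22 and Ccr2 (bottom) in normal (grey), model (red) and QJSB (blue), with lines joining model and QJSB libraries of the same number. In the top panel the lines rise for every gene shown while library 1 stays lowest; in the bottom panel most lines fall and library 1 of model is the highest for the B cell genes.

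Genes of B cell precursors were lower in QJSB. Of 16 listed, 12 were tested, all with a negative log2 fold change and a median of -2.11. The cutoff was passed by 5 of the 12, namely Igll1, Rag2, Ebf1, Cd79b and Il7r, and by 10 with the block. Their summed level was 343, 115 and 46.0 CPM in model and 88.1, 23.5 and 29.0 CPM in QJSB. Against 2473 to 2549 CPM in normal marrow, both groups had lost nearly all of this signal, and the comparison concerns what remained. Model 1 held most of it. Without model 1 0 of the 12 genes passed, and the median was -0.89. Without QJSB 2 or QJSB 3 also 0 passed, whereas without model 3 10 passed.

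Rag1, which together with Rag2 cuts the receptor genes for rearrangement (chr2:101638282-101649501), measured 51.3, 14.5 and 1.26 CPM in model and 7.17, 0.630 and 0.181 CPM in QJSB, beside 252 to 390.0 CPM in normal. Within each number QJSB was the lower, and with the block Rag1 passed after adjustment (log2 -3.41 ± 0.37, adjusted p = 0.0125 in edgeR), although without it the unadjusted P was 0.111. Rag2 measured 11.6, 4.47 and 0.630 CPM in model and 1.6, 0.802 and 0.363 CPM in QJSB (log2 -2.59 ± 0.97, unadjusted P = 0.0307). Dntt, terminal transferase, which adds bases at the joints, measured 84.9, 28.0 and 13.5 CPM in model and 27.8, 4.93 and 4.77 CPM in QJSB (log2 -1.87 ± 0.24 with the block, adjusted p = 0.0314). Its normal level, 55.0 to 80.5 CPM, was no higher than model 1. Ebf1, a transcription factor that commits cells to the B lineage, measured 44.8, 13.4 and 4.01 CPM in model and 8.08, 2.69 and 3.20 CPM in QJSB, and Il7r, the receptor of the growth factor interleukin 7, 37.0, 20.9 and 9.11 CPM and 13.6, 5.04 and 5.68 CPM. Both passed the cutoff with and without the block, with log2 fold changes of -2.16 ± 0.86 and -1.47 ± 0.56. Igll1, a surrogate light chain, was at 17.2, 3.33 and 0.286 CPM and 1.28, 0.344 and 0.725 CPM and was lost with the block (log2 -2.41, unadjusted P = 0.106 in edgeR). Cd79b, a signalling chain of the receptor, was at 18.8, 8.87 and 7.33 CPM and 8.40, 4.81 and 5.20 CPM. Pou2af1, a co-activator of B cells outside this list, fell from 11.7, 1.56 and 0.115 CPM to 1.12, 0.115 and 0.0604 CPM by number and passed after adjustment with the block (adjusted p = 0.0397). In every one of these genes model 1 was the highest of the 6 libraries.

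Of 8 tested genes of mature B cells, 7 had a negative log2 fold change, with a median of -0.47, and 1 passed the cutoff without the block and 3 with it, all lower. Without the block it was Cd22, an inhibitory receptor, at 3.84, 1.77 and 2.63 CPM in model and 1.87, 1.38 and 0.846 CPM in QJSB against 56.2 to 71.2 CPM in normal. The call was lost without QJSB 2 (log2 -1.02, unadjusted P = 0.0941 in edgeR), QJSB 3, model 1 or model 3, and Cd22 passed in 8 of 17 alternatives. Blk, a kinase of the B cell receptor, stood at 7.17, 1.84 and 1.09 CPM and 1.5, 1.55 and 0.846 CPM, and Bank1, an adaptor of the same pathway, at 5.05, 8.16 and 6.87 CPM and 4.92, 6.93 and 3.99 CPM. Neither passed. Of 11 promoters of the pre-B list in the RefSeq table, 0 held the EBF1 motif TCCCNNGGGA, searched on both strands, which 1.06% of all genes held. A motif that rare is seldom met in 11 promoters, so the 0 decides nothing about binding of EBF1.

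Monocyte and dendritic cell genes held a few calls, all lower. Ccr2, the chemokine receptor that releases monocytes from marrow (chr9:124101950-124113557), measured 416, 559 and 255 CPM in model and 298, 123 and 200 CPM in QJSB, beside 175 to 277 CPM in normal. The groups overlapped, as QJSB 1 exceeded model 3. Ccr2 was the only one of 12 monocyte genes past the cutoff (log2 -1 ± 0.37, edgeR, unadjusted P = 0.0268), which it missed with the block (unadjusted P = 0.0524) and without QJSB 2 (log2 -0.72, unadjusted P = 0.0701), QJSB 3, model 1 or model 2. Without QJSB 1 or model 3, 4 monocyte genes passed lower. F13a1, coagulation factor XIII made by monocytes, was at 2162, 1368 and 1352 CPM in model and 1375, 1012 and 1399 CPM in QJSB, and Ms4a6c at 495, 432 and 227 CPM and 259, 248 and 287 CPM. Among 7 dendritic cell genes tested, Siglech, a lectin of plasmacytoid cells, passed at 18.4, 7.95 and 3.61 CPM and 4.87, 4.76 and 3.02 CPM, and Ccr9, a gut-homing receptor, at 3.10, 2.98 and 1.49 CPM and 1.6, 0.630 and 0.725 CPM. Siglech passed in 8 of 17 alternatives and was lost without any library except model 3, with a log2 fold change of -0.46 without model 1 (unadjusted P = 0.3). Ccr9 passed in 10 of 17.

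Interferon-stimulated genes tended lower without many calls. Of 27 tested, 19 had a negative log2 fold change, with a median of -0.29, and 2 passed the cutoff, both lower. These were Gbp2 and Iigp1, interferon-induced GTPases that act against pathogens inside cells. With the block 6 passed, all lower, and for 13 of the 27 each QJSB library lay below the model library of its number. Iigp1 measured 8.6, 24.7 and 3.15 CPM in model and 3.10, 3.78 and 1.93 CPM in QJSB, and Gbp2 35.7, 87.5 and 20 CPM and 23.3, 24.6 and 11.8 CPM. In both, model 2 was the highest library, and without it neither passed (log2 -1.01, unadjusted P = 0.0878 for Iigp1 and log2 -0.50, unadjusted P = 0.234 for Gbp2). Iigp1 passed in 13 of 17 alternatives and Gbp2 in 5 of 17. Stat2, a transcription factor downstream of the interferon receptors, stood at 72.5, 74.7 and 68.9 CPM in model and 70.0, 71.9 and 71.2 CPM in QJSB and did not pass.

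Il18, interleukin 18, a cytokine that caspase 1 activates in the inflammasome (chr9:50575273-50581837), fell in QJSB. It measured 6.94, 5.68 and 3.21 CPM in model and 2.94, 1.6 and 1.45 CPM in QJSB, and normal marrow held 8.27 to 10.5 CPM. The groups did not overlap, and the log2 fold change of -1.41 ± 0.41 (edgeR, unadjusted P = 0.00828) passed the cutoff in all 17 alternatives. None of the other 14 inflammasome and interleukin 1 genes passed it. Casp1, caspase 1, stood at 74.9, 109 and 62.9 CPM in model and 60.0, 55.5 and 56.5 CPM in QJSB, with separate groups but a log2 fold change of -0.53, short of the fold limit. Gsdmd, the pore protein that caspase 1 cleaves, was at 62.6, 78.5 and 84.4 CPM and 72.8, 95.8 and 94.5 CPM, and Aim2, a sensor of DNA, at 63.8, 72.2 and 45.3 CPM and 51.8, 52.4 and 38.8 CPM.

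Immediate early genes, which cells switch on within minutes of a stimulus, were higher in QJSB. Of 14 tested, 13 had a positive log2 fold change, with a median of 0.65, and 6 passed the cutoff, namely Fos, Jun, Egr1, Ier2, Dusp1 and Klf2. For 11 of the 14, each QJSB library exceeded the model library of its number, and 5 passed with the block. QJSB 2 was the highest of the 6 libraries for Fos, Jun, Egr1, Ier2, Dusp1 and Klf2. Leaving it out left 0 calls and a median of 0.39, leaving out model 1 or model 2 left 1 or 2 calls, and leaving out QJSB 1 gave 10.

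Fos and Jun encode the AP-1 transcription factor. Fos measured 16.5, 17.8 and 17.9 CPM in model and 19.3, 40.2 and 25.0 CPM in QJSB, and Jun 5.56, 4.82 and 7.85 CPM and 7.28, 18.6 and 11.2 CPM. The groups of Fos did not overlap, whereas QJSB 1 of Jun lay below model 3. The log2 fold changes were 0.68 ± 0.27 and 1.01 ± 0.37 (edgeR, unadjusted P = 0.032 and 0.023). Fos measured 36.4, 15.4 and 3.21 CPM in the normal mice, a wider spread than in either group compared. Klf2, a zinc-finger factor of quiescent cells, measured 7.34, 7.52 and 9.68 CPM in model and 11.2, 27.0 and 14.1 CPM in QJSB, all below the 34.6 to 37.0 CPM of normal (log2 1.08 ± 0.34). Dusp1, a phosphatase of MAP kinases, was at 12.8, 15.0 and 6.24 CPM and 10.3, 71.6 and 28.2 CPM, with QJSB 1 below model 1 and model 2, and it was lost with the block (log2 1.41, unadjusted P = 0.111 in edgeR). Egr1, a zinc-finger factor induced by growth signals, was at 0.860, 0.709 and 0.916 CPM and 1.6, 2.01 and 1.57 CPM. Ier2 was at 29.0, 26.0 and 38.7 CPM and 33.2, 72.1 and 48.6 CPM. Among the most abundant members, Klf6 (150.3, 169.8 and 165 CPM and 152, 289 and 267 CPM) and Fosl2 (106, 112 and 120.4 CPM and 112, 161 and 187 CPM) did not pass. A CArG box, to which serum response factor binds, was found in 1 of 12 promoters of this list in the RefSeq table, beside 1.81% of all genes. A site for its partner Elk4 was not searched.

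Genes of the cholesterol list were higher in QJSB by small amounts. All 17 tested had a positive log2 fold change, with a median of 0.46, and 3 passed the cutoff, Idi1 and Fdft1 among them. Each QJSB library exceeded the model library of its number for 7 of the 17. Idi1, an isomerase of the isoprenoid branch, measured 38.7, 19.8 and 41.7 CPM in model and 50, 84.3 and 49.2 CPM in QJSB without overlap (log2 0.86 ± 0.32; unadjusted P = 0.0653 in edgeR with the block). Fdft1, squalene synthase, measured 14.3, 19.7 and 22.4 CPM and 20.7, 44.9 and 26.6 CPM, with QJSB 1 below model 3. Hmgcs1, the synthase that makes HMG-CoA, stood at 60.0, 70.1 and 79.5 CPM in model and 74.1, 144 and 78.9 CPM in QJSB and did not pass. Without QJSB 2 0 of the 17 passed and the median was 0.22; without model 2 0 passed and without model 1 1, whereas without QJSB 1, QJSB 3 or model 3 5 to 7 passed. Hmgcs1 (33.6 to 34.7 CPM) was lower in normal marrow than in all 6 mice.

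The NF-Y motif CCAAT, a common partner of sterol-regulated promoters, was found on either strand in 11 of the 11 promoters of this list in the RefSeq table, beside 41.1% of all genes. The sterol regulatory element itself, searched as a nearly fixed string, was found in 0 of them, beside 0.163% of all genes. A string that rare is seldom met in 11 promoters, so the 0 decides nothing about sterol elements in these genes. The Idi1 window on GRCm38.p6 is shown because Idi1 is the member with separate groups and the largest log2 fold change among those, with 2 matches in capitals, both read as ATTGG on this strand.
Idi1, chr13:8885356-8885655, plus strand: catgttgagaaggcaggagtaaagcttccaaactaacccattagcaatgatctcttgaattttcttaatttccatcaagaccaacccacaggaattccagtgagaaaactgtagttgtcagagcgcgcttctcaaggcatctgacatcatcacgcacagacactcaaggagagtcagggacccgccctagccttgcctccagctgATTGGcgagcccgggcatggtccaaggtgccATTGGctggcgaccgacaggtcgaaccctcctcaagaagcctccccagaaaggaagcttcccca

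Genes of phosphatidylcholine synthesis held 2 calls among 12 tested. Pcyt1a, the rate-limiting enzyme that activates phosphocholine (chr16:32430921-32475070), measured 41.3, 37.4 and 97.1 CPM in model and 118, 141 and 113 CPM in QJSB. The groups did not overlap, although model 3 lay close to the lowest QJSB mouse, and the log2 fold change was 1.07 ± 0.35 (edgeR, unadjusted P = 0.0158). Without the first library of each group it did not pass (log2 0.89, unadjusted P = 0.0857). Phospho1, a phosphatase of phosphocholine, was at 1.55, 1.92 and 2.06 CPM in model and 1.66, 5.90 and 5.08 CPM in QJSB, a log2 fold change of 1.18 ± 0.47. Leaving out any of the libraries other than QJSB 1 lost this call. Chka, choline kinase, stood at 55.4, 77.5 and 64.5 CPM and 51.7, 83.7 and 87.4 CPM, and Pld1, a phospholipase, at 41.3, 75.6 and 65.2 CPM and 48.3, 93.2 and 103 CPM. Neither passed.

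Genes of leukotriene synthesis were higher in QJSB, and a receptor of the pathway was lower. Of 14 tested genes of arachidonic acid metabolism, 3 passed the cutoff higher (Alox5, Lta4h and Ltb4r1) and 1 lower (Cysltr1), and with the block 6 passed higher and 2 lower. Alox5, the lipoxygenase that opens the leukotriene pathway in granulocytes (chr6:116410077-116461178), measured 19.7, 47.5 and 48.0 CPM in model and 41.6, 167 and 107 CPM in QJSB. It rose by a log2 fold change of 1.44 ± 0.53 (edgeR, unadjusted P = 0.0293; adjusted p = 0.0378 with the block), and QJSB 1 lay below model 2 and model 3. Lta4h, the hydrolase that makes leukotriene B4, measured 339, 378 and 488 CPM and 436, 857 and 749 CPM, and its receptor Ltb4r1 32.5, 43.8 and 66.5 CPM and 47.9, 133 and 101 CPM. Cysltr1, the receptor of the cysteinyl leukotrienes, measured 20.1, 24.2 and 14.8 CPM in model and 15.0, 11.7 and 9.12 CPM in QJSB, and it fell by 0.73 on the log2 scale. Alox5ap, the membrane helper of Alox5, was at 133, 176 and 235 CPM and 165, 435 and 335 CPM, and Ptgs1, cyclooxygenase 1, at 75.0, 102 and 119 CPM and 102, 156 and 159 CPM. They did not pass without the block, and Alox5ap passed with it (log2 0.70 ± 0.21, unadjusted P = 0.00611 in edgeR). Alox5 followed the late granule genes across the mice, with QJSB 2 and QJSB 3 highest and model 1 lowest in both, and the part of neutrophil number in its values was not tested. Without QJSB 2 or QJSB 3 0 of the 14 genes passed, without model 1 0 passed higher, and without QJSB 1 8 passed higher.

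**Figure D4:**
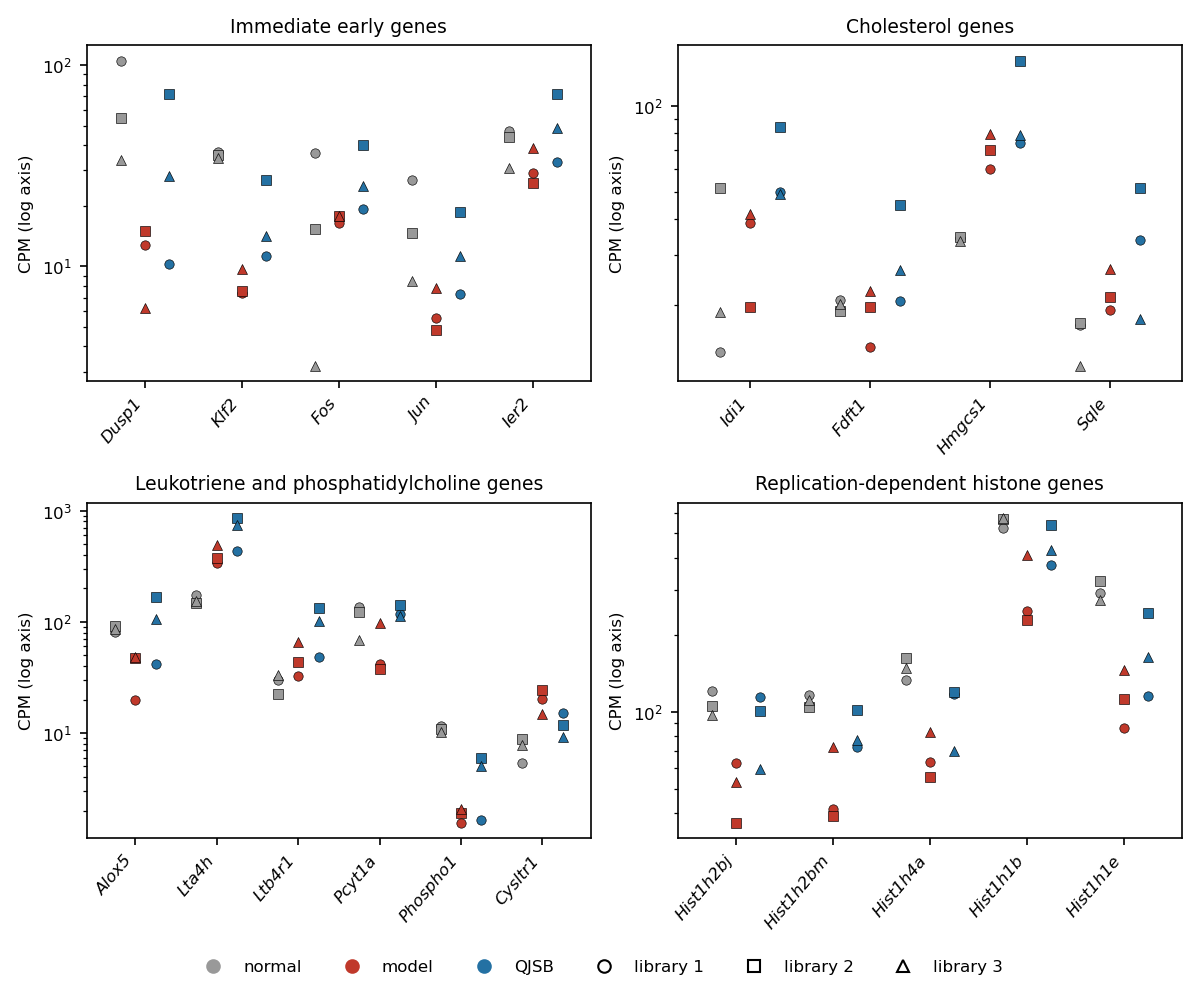
CPM (log axis) of genes of 4 processes in normal (grey), model (red) and QJSB (blue), with the marker shape giving the library number. QJSB 2 (blue square) is the highest of the 6 cyclophosphamide libraries for most genes shown, and Cysltr1 is the gene shown that is lower in QJSB.

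Replication-dependent histone genes were mostly higher in QJSB. Of 21 histone genes tested, 20 had a positive log2 fold change, with a median of 0.46, and 4 passed the cutoff, all higher. Hist1h2bj measured 63.0, 36.6 and 53 CPM in model and 114, 100.3 and 59.6 CPM in QJSB, Hist1h2bm 41.5, 39.2 and 72.6 CPM and 72.9, 101 and 77.1 CPM, and the linker histone Hist1h1b 247, 229 and 409 CPM and 375, 538 and 430.0 CPM. Of these, Hist1h2bm had separate groups, with QJSB 1 at the level of model 3. Hist1h4a was at 63.4, 55.3 and 83.2 CPM and 117, 119 and 70.3 CPM and missed the fold limit with the block (log2 0.58). Outside the list, Hist1h4j measured 12.2, 11.8 and 19.2 CPM and 24.8, 42.8 and 25.4 CPM (log2 1.09 ± 0.29, edgeR, unadjusted P = 0.0046). Histone transcripts lack a poly(A) tail and are seen here because the libraries were made from total RNA, and their genes share near-identical stretches, so single members are uncertain. Without QJSB 2 or model 1, 1 of the 21 passed, without model 2 0 passed, without QJSB 3 7 passed and without model 3 9 passed. Of 21 replication and mitosis genes 0 passed in edgeR with or without the block and 0 in DESeq2, and 0 had an unadjusted P under 0.05 in edgeR, with a median of 0.08; without model 3, 3 passed higher and the median was 0.20. Rrm1, a subunit of ribonucleotide reductase, was at 357, 393 and 359.8 CPM and 376, 359 and 338 CPM. The difference between the lists was not tested.

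Genes of the TGF-beta pathway, which restrains the division of blood stem cells, held 3 calls among 25 tested, all higher. Cited2, a co-regulator that binds CBP and p300 (chr10:17723228-17725673), measured 95.1, 107 and 140.0 CPM in model and 157, 266 and 189 CPM in QJSB without overlap. Its log2 fold change was 0.83 ± 0.23 (edgeR, unadjusted P = 0.0065), above a normal level of 61.2 to 80.9 CPM. Skil, a repressor of Smad proteins, measured 16.3, 30.9 and 20.8 CPM and 22.2, 54.0 and 53.7 CPM with overlap, and the receptor Acvrl1, found mostly in endothelium, 5.62, 8.02 and 6.53 CPM and 6.58, 17.4 and 13.3 CPM. Id2, a target of the pathway, was at 88.1, 122 and 81.1 CPM and 68.6, 231 and 134 CPM and did not pass (log2 0.57 ± 0.40). The median of the list was 0.23, while leaving out QJSB 2, QJSB 3 or model 3 left 1 call and leaving out QJSB 1 gave 6.

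Of the 22 genes that the study names for the transcriptome, 21 were tested, and 8 passed the cutoff higher and 5 lower. They were chosen on these samples, so their direction is not independent evidence. Others among them were Ndst1, a sulfotransferase of heparan sulfate (47.3, 49.9 and 50.1 CPM and 52.4, 129.5 and 82.0 CPM), Atp6v1g2, a subunit of the vacuolar proton pump (2.47, 3.97 and 4.64 CPM and 4.17, 9.91 and 6.95 CPM) and Dpp4, a peptidase of the cell surface (71.4, 50 and 25.9 CPM and 36.9, 18.8 and 18.7 CPM). Ndst1 and Atp6v1g2 rose, by log2 fold changes of 0.83 and 0.91. Dpp4 fell by 1 on the log2 scale. Dpp4 stood far below the 218 to 232 CPM of normal in all 6 mice. With the block 15 of the 21 passed higher and 4 lower, without QJSB 2 3 passed higher and 1 lower, and without the first library of each group 14 passed higher and 5 lower. In DESeq2, the tool with which the study called its genes, 20 of the 21 passed, 15 of them higher, beside 668 of 21762 over all genes. Genes that missed the cutoff in edgeR without the block and passed it with the block and in DESeq2 included Cyp4f18, which degrades leukotriene B4 (log2 1.02 ± 0.34, unadjusted P = 0.015), Ggt5, which processes leukotriene C4 (log2 0.76 ± 0.34, unadjusted P = 0.0486), and Atp6v1c2, a further proton pump subunit (log2 1.69 ± 0.53, unadjusted P = 0.00862). The T cell receptor chain Cd3d (log2 1.07 ± 0.39, unadjusted P = 0.0188) and the B cell survival factor Tnfsf13b (log2 0.89 ± 0.40, unadjusted P = 0.0493) did so too. Cd3d measured 1.20, 2.55 and 2.63 CPM in model and 1.39, 11.1 and 4.47 CPM in QJSB, with QJSB 2 far above the others.

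**Figure D5:**
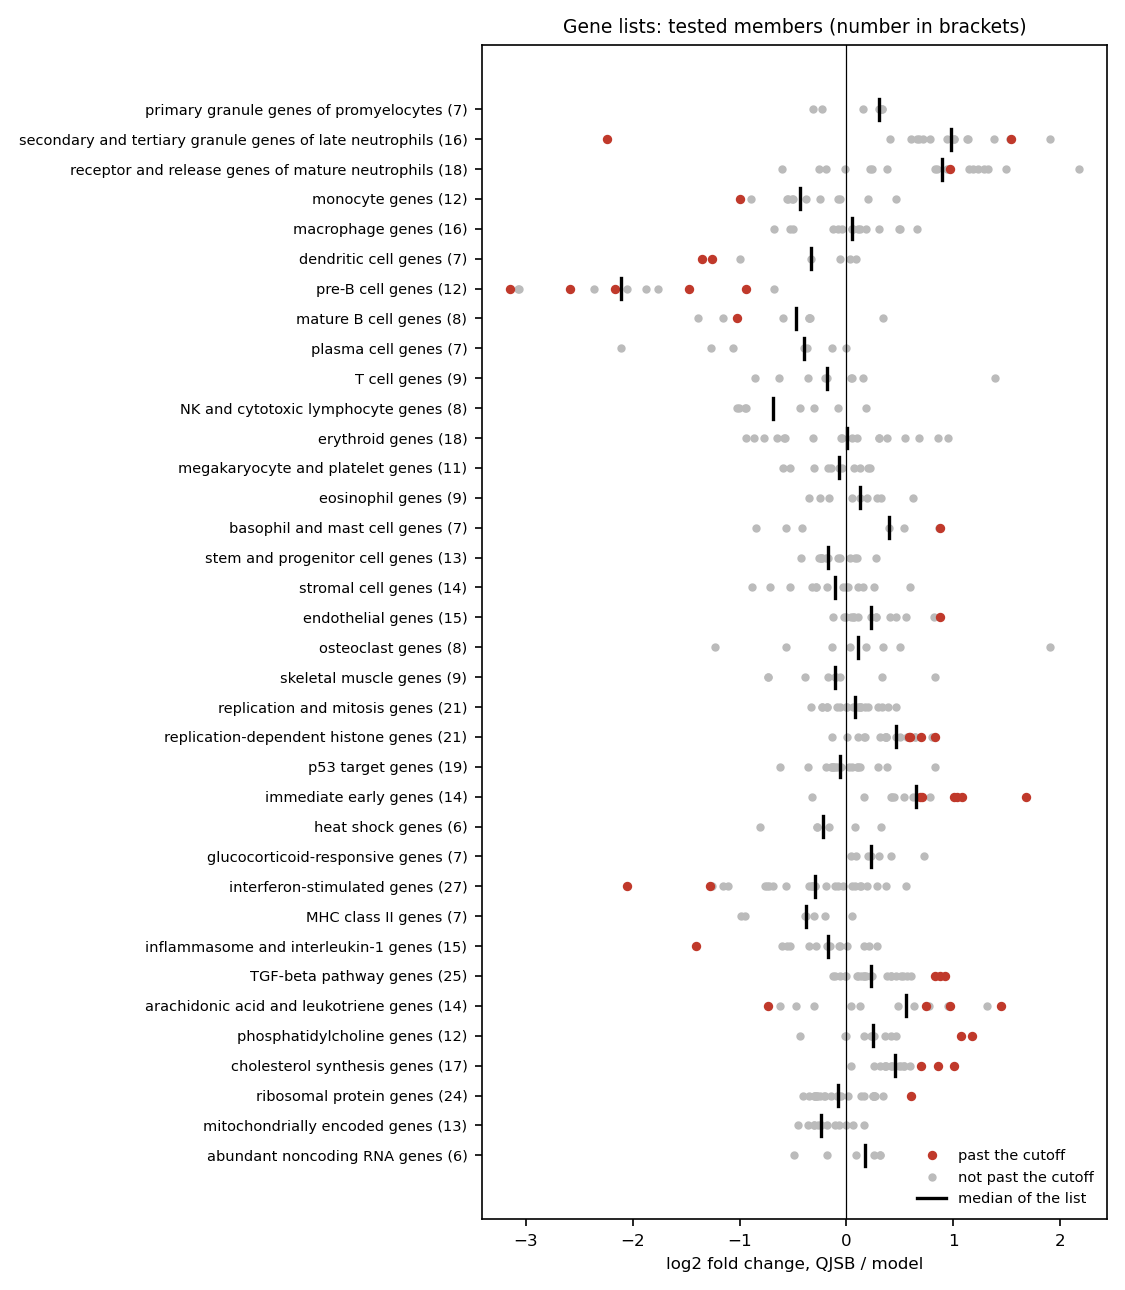
Log2 fold change of QJSB over model (x axis) for every tested member of 36 gene lists (y axis, number tested in brackets), with genes past the cutoff in red and the median of each list as a black bar. The pre-B cell list has the lowest median (-2.11) and the lists of late granule genes (0.98) and mature neutrophil genes (0.89) the highest.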

How the data were processed

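Femoral marrow RNA of 12 mice was depleted of ribosomal RNA, made into strand-specific libraries and sequenced by the authors, who mapped the reads with HISAT2 to mm10. The counting tool and its strand setting are not given in the sources used here. The authors deposited whole-number read counts per gene without normalization, and FPKM, the count per transcript length and total fragments, for each library. Only the heading Model is also a group name in the labels. Blank was read as normal and Positive as leucogen from their meaning, and Stilbene, which no label or method explains, as QJSB by elimination; replicate numbers came from the headings. The reading was afterwards compared with the mean normalized counts that a supplement lists for QJSB and model. For 300 of 300 genes the Stilbene and Model columns matched within 1%, and any other pair of groups for at most 10. That comparison uses measured values, and the assignment does not come from a label.

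Counts were tested with edgeR 4.0.16 in R 4.3.3 (TMM, filterByExpr, robust glmQLFit, glmQLFTest) on 3 QJSB against 3 model libraries, since each group has 1 library per mouse. The standard error is the log2 fold change over the root of F. The cutoff is that of the study, over 1.5-fold and unadjusted P under 0.05, with Benjamini-Hochberg adjustment over the 14486 genes as the stricter cutoff. An exact permutation test of 3 against 3 cannot give a two-sided p below 0.1 and was not used. Depth was 13279282 to 18545198 counts per library, and libraries of a group all differed from each other beyond counting error.

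Replicate numbers were checked for pairing. The deviations of same-numbered model and QJSB libraries from their group means correlated at 0.451, 0.135 and 0.102 over 14486 genes, each above 0.1, and the fit with the number as a block is given where it changes a call. The pairing comes from these values alone, as neither the labels nor the methods state it, and model 2 with QJSB 3 (0.182) and model 3 with QJSB 2 (0.168) also correlated.

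The genes named are the 12 largest rises and 12 largest falls past the cutoff without overlap and with at least 50 normalized counts on average, leaving out models without a name and receptor segments, then genes past the adjusted cutoff with the block, genes the study names, and per list the 4 most abundant members and those past the cutoff. The members and the 37 lists were chosen with earlier results of these data known. Promoter windows came from RefSeq (GRCm38.p6). Alternatives were DESeq2 1.42.0, other scalings and filters, all 12 libraries in 1 fit, limma 3.58.1 on log2(FPKM + 0.1 or 1), and libraries left out. The edgeR fit was tested on simulated data. Some genes that the rule gives are not reported here.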

Additional observations from a re-analysis of the deposited data

How the results depend on the processing

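The count of genes past the study cutoff, 446, moved by over 1.5 times with the replicate number as a block (830), in a fit of all 12 libraries (802), on log2(FPKM + 1) (276) and without the first library of each group (1330), and it ran from 149 to 1715 when single libraries were left out. After adjustment, 0 genes passed in edgeR with 723 at an unadjusted P under 0.05, 8 in DESeq2, 18 with the block, 23 without the first library of each group, and 0 to 3 when single libraries were left out. Genes with an unadjusted P under 0.05 numbered 1915 in the fit of all 12 libraries, 1434 with the block, 1605 without the first library of each group, and 183 to 2291 when single libraries were left out. The first libraries were left out together because they stood apart from the others of their groups, a choice made with earlier results known. Genes whose groups did not overlap numbered 1420 with TMM and 1399 with total counts. The direction of the 65 calls of named genes held in each of the 17 alternatives for 62 of them, and in the 16 that tested them for Fam110c, Igll1 and Rag2. These calls were made on the libraries that the alternatives re-use, so their kept direction was largely set by the choice of genes. Of the 37 list medians, 15 moved by less than the spread between replicates in every alternative. The depth of 13279282 to 18545198 counts does not limit the abundant genes, but Pou2af1, Igll1, Egr1, Fam110c and Rag2 rest on few counts in several libraries.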

Other observations

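Other cell types gave few calls with all 6 libraries, and single libraries moved them. Of 18 erythroid genes tested, 0 passed the cutoff in edgeR and 1 passed in DESeq2, and 0 had an unadjusted P under 0.05 in edgeR; with the block 1 passed higher and 1 lower. Without model 1, the library with the highest erythroid sum of the 6, 5 passed higher and the median was 1.18. Without QJSB 1 or model 3 1 passed lower, and without the first library of each group 2 passed higher and 1 lower. The summed level was 2265, 604 and 373 CPM in model and 1024, 760.4 and 377 CPM in QJSB, beside 23263 to 27055 CPM in normal, so both groups held a small share of the normal erythroid signal. The megakaryocyte and platelet genes (11 tested) summed to 639.9, 242 and 275 CPM in model and 388, 338 and 366 CPM in QJSB with 0 passing in edgeR and 0 in DESeq2. The median was -0.07, but without model 1 it was 0.59 and 4 passed higher, and without the first library of each group it was 0.45 and 4 passed higher; without model 2 or model 3 1 passed lower. Stem and progenitor cell genes (13 tested) summed to 500.1, 315 and 297 CPM and 475, 339.8 and 302 CPM, above the 206 to 251 CPM of normal, again with 0 passing in either and 1 lower without model 3. T cell genes (9 tested) had 0 calls in edgeR without the block and 1 in DESeq2, and with the block, or without QJSB 1, 1 passed higher and 2 lower. With the block the higher one was Cd3d. NK and cytotoxic lymphocyte genes (8 tested) had a median of -0.69 with 0 calls in edgeR without the block, 1 lower with it, 3 lower without model 3 and 0 in DESeq2, and Klrd1, a receptor chain of these cells, stood at 5.10, 3.76 and 1.6 CPM in model and 3.64, 2.29 and 1.87 CPM in QJSB.

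Markers of tissue beside the marrow varied between libraries. Skeletal muscle genes (9 tested) summed to 21.6, 124 and 38.1 CPM in model, 121, 23.4 and 24.1 CPM in QJSB and 10.0 to 242 CPM in normal. Stromal cell genes (14 tested) summed to 937, 363 and 318 CPM in model and 1088, 289 and 288 CPM in QJSB. With all 6 libraries and no block neither list held a gene past the cutoff in edgeR or DESeq2. With the block 2 stromal genes passed lower. Without QJSB 1, the library with the highest stromal sum, 4 stromal and 2 muscle genes passed lower, and without the first library of each group 2 stromal and 5 muscle genes did, with a muscle median of -1.66. Their part in other results was not tested. The 13 mitochondrially encoded genes summed to 17961, 25750.0 and 18169 CPM in model and 20773, 18549 and 17729 CPM in QJSB, with 0 past the cutoff in edgeR, and 3 lower without the first library of each group. The 24 ribosomal protein genes tested had a median log2 fold change of -0.08. Of 19 p53 target genes 0 passed in edgeR or DESeq2 and 2 passed higher without QJSB 1, and Ccng1, cyclin G1, stood at 164, 216 and 141 CPM and 134, 131 and 143 CPM. Glucocorticoid-responsive genes (7 tested) all had a positive log2 fold change, with a median of 0.23 and 0 past the cutoff in edgeR without the block, 1 higher with it, 1 in DESeq2 and 2 higher without the first library of each group, and Fkbp5, a chaperone induced by the hormone, stood at 243, 174 and 204 CPM in model and 229, 277 and 268 CPM in QJSB.

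Among lists of white cells not described above, macrophage genes (16 tested) and eosinophil genes (9 tested) held 0 calls in edgeR without the block and 0 in DESeq2. With the block 1 macrophage gene passed lower, and without QJSB 1 2 passed higher and 1 lower. Adgre1, the macrophage antigen F4/80, stood at 54.7, 46.9 and 20.3 CPM in model and 36.9, 20.8 and 19.4 CPM in QJSB, and Slc40a1, ferroportin, the iron exporter, at 83.0, 142 and 127 CPM and 94.6, 237 and 226 CPM. Plasma cell genes (7 tested) all had a negative log2 fold change, with a median of -0.39 and 0 calls in edgeR without the block and 3 lower with it. Irf4, a transcription factor of activated lymphocytes and plasma cells, stood at 11.8, 4.61 and 1.78 CPM in model and 5.62, 0.974 and 0.967 CPM in QJSB. MHC class II genes (7 tested) had a median of -0.38, with 0 calls without the block, 2 lower with it and 5 lower without QJSB 1; H2-Aa stood at 22.5, 26.2 and 5.78 CPM and 17.9, 6.76 and 3.08 CPM, beside 63.0 to 102 CPM in normal. Endothelial genes (15 tested) held 1 call, Acvrl1, which passed in 10 of 17 alternatives, and Flt1, a receptor of vascular endothelial growth factor, stood at 15.5, 16.0 and 17.6 CPM and 22.0, 19.5 and 18.7 CPM. Osteoclast genes (8 tested) held 0 calls in edgeR without the block and 1 in DESeq2, with the block 1 passed higher and 1 lower, and without QJSB 1 2 passed higher and 1 lower. Heat shock genes (6 tested) held 0 calls in edgeR with or without the block and 1 in DESeq2, and 4 passed lower without QJSB 1.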
